A study of Rattus norvegicus with 15 samples.

Results

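The immunoproteasome is a form of the proteasome, the barrel-shaped complex that degrades ubiquitinated proteins, in which 3 inducible catalytic subunits take the places of their constitutive relatives. Its genes and those of the proteasome activators PA28 and PA200 were followed in dorsal CA1, the part of the hippocampus in which contextual memories are studied. The genes are Psmb8, Psmb9 and Psmb10 (catalytic subunits), Psme1 and Psme2 (PA28 alpha and beta), Psme3 (PA28 gamma) and Psme4 (PA200). They were chosen by name, with earlier results of these data known, and all 7 were found among the 22314 genes of the deposited count table. Of the 7, 6 passed the filter on low counts and were tested, and Psme1 did not pass it.

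Interferon gamma switches on the inducible subunits, which are built into newly assembled cores: beta-1i (Psmb9) replaces beta-1 (Psmb6), beta-2i (Psmb10) replaces beta-2 (Psmb7) and beta-5i (Psmb8) replaces beta-5 (Psmb5). The exchange alters which peptides the complex releases, and many of them are loaded on MHC class I molecules. In brain, immune-type cells such as microglia are a known site of these subunits, and neurons carry mostly the constitutive forms. The PA28 alpha-beta ring caps the core and is also induced by interferon, whereas PA28 gamma and PA200 act mainly in the nucleus and are not classical interferon targets.

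RNA was sequenced from 15 dorsal CA1 samples, 5 in each of 3 groups, of wild-type male rats (Sprague-Dawley, 8 to 9 weeks old). The first group was injected with siRNA labelled as directed at Rnf20 and trained in contextual fear conditioning, a task that pairs a place with a shock (Rnf20-labelled libraries, replicates 4, 8, 14, 18 and 20). The second received scrambled siRNA and the same training (trained scrambled libraries, replicates 5, 6, 10, 15 and 16). The third received scrambled siRNA and no training (naive libraries, replicates 1, 2, 9, 11 and 12). The siRNA was of the Accell type, injected stereotaxically, and training followed 5 days after injection. Every group therefore carries an injected siRNA, and tissue without injection was not analysed here. The study asked how ubiquitin on histone H2B, which the ligase Rnf20 attaches, bears on gene expression while a memory forms.

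Total counts were 12537250 to 18458527 in Rnf20-labelled libraries, 15342480 to 20644425 in trained scrambled libraries and 14249375 to 17046535 in naive libraries. Rnf20 itself was at 38.3 to 44.6 CPM (read counts scaled to a common library size) in Rnf20-labelled libraries, 36.4 to 48.5 CPM in trained scrambled libraries and 39.1 to 44.7 CPM in naive libraries, so the transcript was not lower under its label and the group is called by its label only. The labels describe tissue holding all brain cell types, and neuron markers, microglia markers and blood transcripts were all detected in each library. In such bulk tissue a change in the number of cells of a type and a change in RNA per cell cannot be told apart. The first principal component held 35.7% of the variance and set apart trained scrambled replicates 10 and 15 and Rnf20-labelled replicate 18 at 1 end and Rnf20-labelled replicate 14 at the other. Values of the members and their ratios without these 4 libraries are given after the main ones, and the medians of gene lists are given with all libraries only.

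Promoter sequences are shown for the 3 inducible catalytic subunits and for PA28 beta, the tested members with the largest fold changes between groups. Each is a window of 300 bases, 250 before and 50 after the annotated transcript start, printed 5′ to 3′ on the strand of the gene, from RefSeq on the rat build GRCr8 (the counts were made on Rnor_6.0). Capitals mark matches on either strand to GAAA, any 2 bases and GAAA, the core of the interferon-stimulated response element (ISRE), which IRF transcription factors bind. The Psmb8 window is chr20:4656982-4657281 on the minus strand, and its capitals show the reverse complement of the core. The Psmb9 window is chr20:4668750-4669049 on the plus strand. The Psmb10 window is chr19:50743243-50743542 on the minus strand and the Psme2 window is chr15:33052702-33053001 on the minus strand.
Psmb8: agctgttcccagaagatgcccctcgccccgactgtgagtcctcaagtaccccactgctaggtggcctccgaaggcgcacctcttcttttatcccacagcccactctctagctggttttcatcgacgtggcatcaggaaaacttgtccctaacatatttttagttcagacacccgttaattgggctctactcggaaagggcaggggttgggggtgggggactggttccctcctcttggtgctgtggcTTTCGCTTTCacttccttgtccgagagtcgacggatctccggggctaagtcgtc
Psmb9: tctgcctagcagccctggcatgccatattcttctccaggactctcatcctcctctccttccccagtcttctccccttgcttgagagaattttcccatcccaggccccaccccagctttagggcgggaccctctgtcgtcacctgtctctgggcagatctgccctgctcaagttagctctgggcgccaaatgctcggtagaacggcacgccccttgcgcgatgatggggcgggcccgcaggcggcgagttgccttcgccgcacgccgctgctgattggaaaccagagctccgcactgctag
Psmb10: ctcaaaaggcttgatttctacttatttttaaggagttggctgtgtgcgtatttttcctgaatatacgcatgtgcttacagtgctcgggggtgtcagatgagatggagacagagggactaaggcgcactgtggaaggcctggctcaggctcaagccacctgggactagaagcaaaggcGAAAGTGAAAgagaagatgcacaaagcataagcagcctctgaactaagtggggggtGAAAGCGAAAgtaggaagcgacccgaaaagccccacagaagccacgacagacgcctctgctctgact
Psme2: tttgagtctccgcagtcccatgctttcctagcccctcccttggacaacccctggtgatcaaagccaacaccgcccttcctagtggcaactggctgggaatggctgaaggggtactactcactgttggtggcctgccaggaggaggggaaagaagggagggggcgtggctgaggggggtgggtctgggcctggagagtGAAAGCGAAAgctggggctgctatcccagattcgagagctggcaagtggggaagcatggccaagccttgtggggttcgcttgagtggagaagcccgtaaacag

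The ISRE-type core was found in the promoters of 3 of the 7 members. Psmb10 held 2 matches, starting 73 and 17 bases before the transcript start. Psme2 held 1 match, starting 53 bases before it, and Psmb8 held 1 on the reverse strand, from 4 bases before the start to base 6 after it. The windows of Psmb9, Psme1, Psme3 and Psme4 held no match, which says only that these letters are not in these windows. A match to TTC, any 3 bases and GAA, the core of the gamma-activated site, was found in Psmb8 alone among the members, starting 245 bases before the start and not overlapping the ISRE-type match. Of all 33469 promoters in the table, 3.92% held the ISRE-type core and 8.87% the gamma-activated core, and among promoters of tested genes the shares were 2.91% and 6.79%. Of 35 promoters of interferon-stimulated genes, 23 (65.7%) held the ISRE-type core, and of the promoters of the constitutive partners Psmb5, Psmb6 and Psmb7, 0 did. In the whole constitutive 20S core, to which these partners belong, 2 of 13 promoters (15.4%) held it. So did 1 of 16 (6.25%) for the 19S regulatory particle of the proteasome and 6 of 20 (30%) for peptide loading and MHC class I genes. RefSeq places Tap1, a subunit of the peptide transporter, between Psmb8 and Psmb9 on chromosome 20.

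**Figure D1:**
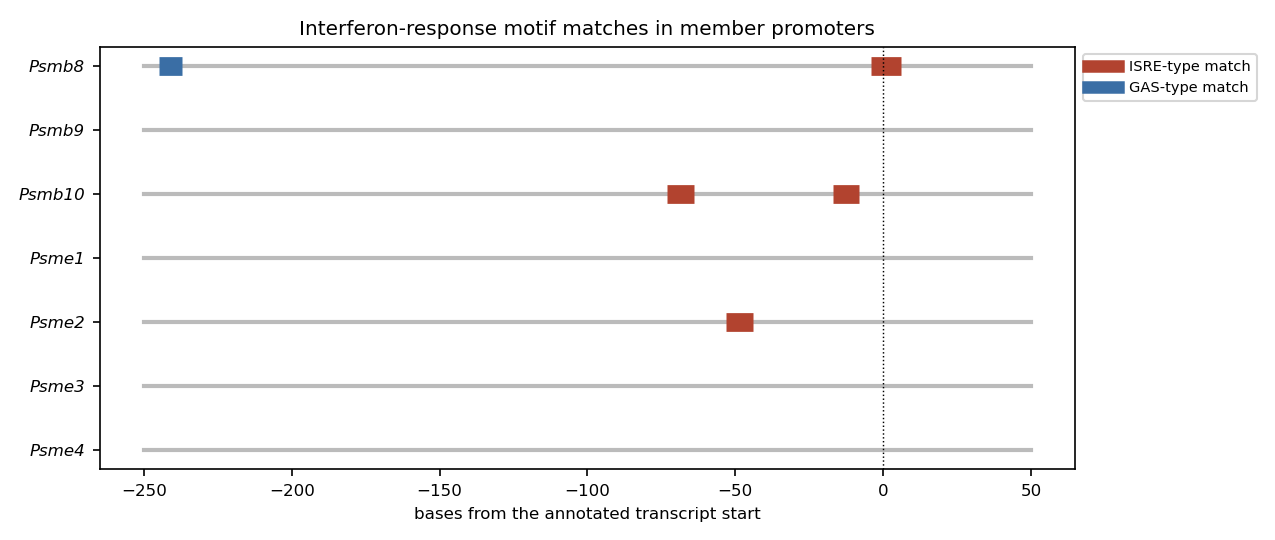
Positions of interferon-response motif matches in the 7 member promoters, on an axis of bases from the annotated transcript start (250 before to 50 after). Red blocks are ISRE-type matches and blue blocks gamma-activated matches: Psmb10 has 2 red blocks, Psme2 has 1, Psmb8 has 1 of each colour, and the other 4 windows are empty.

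The inducible catalytic subunits and PA28 beta had their highest group means in trained scrambled libraries, at about the level of the naive group in Rnf20-labelled libraries. Psmb8 and Psmb9 had 1.80-fold the naive level in the trained scrambled group, Psme2 1.44-fold and Psmb10 1.25-fold. The nuclear activators Psme3 and Psme4 differed by less than 1.02-fold between these groups. None of the 6 tested members passed edgeR's quasi-likelihood test with Benjamini-Hochberg adjustment over all 14880 tested genes in any comparison, and the groups overlapped for all 6. Nor did any other gene in that fit: 0% of tested genes were called in each of the 3 comparisons. The log2 fold changes of trained scrambled over naive libraries were 0.85, 0.85, 0.32 and 0.53 for Psmb8, Psmb9, Psmb10 and Psme2. Their SDs within groups on the log2 scale were 0.55, 0.50, 0.21 and 0.29. For Psme3 and Psme4 the log2 fold changes were 0.03 and 0.01 and the SDs 0.11 and 0.27. At an unadjusted p under 0.05 edgeR placed 1484 genes between trained scrambled and naive libraries, 342 between Rnf20-labelled and naive libraries and 835 between the trained groups. The labels do not say whether the 5 samples of a group are 5 animals, and the spread behind each p may therefore be partly technical.

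Psmb8, the beta-5i subunit that carries chymotrypsin-like activity, was the scarcest of the inducible subunits in counts, at 22 to 166 reads per library. In Rnf20-labelled libraries it was at 3.71, 5.07, 1.83, 6.52 and 4.60 CPM (replicates 4, 8, 14, 18 and 20). In trained scrambled libraries it was at 4.11, 8.24, 9.45, 7.58 and 9.63 CPM (replicates 5, 6, 10, 15 and 16). In naive libraries it was at 3.18, 2.81, 6.06, 5.71 and 3.85 CPM (replicates 1, 2, 9, 11 and 12). All trained scrambled libraries but replicate 5 exceeded every naive and every Rnf20-labelled library, while replicate 5 lay inside both other groups. The Rnf20-labelled mean, 4.35 ± 1.73 CPM, and the naive mean, 4.32 ± 1.48 CPM, differed by far less than their spread (SD, n = 5 each), and the trained scrambled mean was 7.80 ± 2.23 CPM. The log2 fold change was -0.84 (SE 0.31) for Rnf20-labelled over trained scrambled libraries and 0.85 (SE 0.31) for trained scrambled over naive libraries, with edgeR adjusted p of 0.832 and 0.411 and unadjusted p of 0.0166 and 0.0150.

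Psmb9, the beta-1i subunit, cuts after hydrophobic rather than acidic residues and so yields peptides suited to MHC class I. Its levels were 8.09, 11.4, 4.33, 16.0 and 7.51 CPM in Rnf20-labelled replicates 4, 8, 14, 18 and 20. Trained scrambled replicates 5, 6, 10, 15 and 16 held 8.15, 14.4, 18.95, 17.7 and 18.6 CPM, and naive replicates 1, 2, 9, 11 and 12 held 7.41, 8.14, 9.88, 8.66 and 9.19 CPM. The naive libraries were close to each other, with a coefficient of variation of 11.0%, against 46.9% in Rnf20-labelled and 29.0% in trained scrambled libraries. Rnf20-labelled replicate 18 lay among the high trained scrambled libraries and replicate 14 lay below every other library. Means were 9.47 ± 4.45 CPM in Rnf20-labelled, 15.6 ± 4.52 CPM in trained scrambled and 8.66 ± 0.95 CPM in naive libraries (SD, n = 5 each). The log2 fold change was -0.71 (SE 0.28, edgeR adjusted p = 0.832) for Rnf20-labelled over trained scrambled libraries. For trained scrambled over naive libraries it was 0.85 (SE 0.28, edgeR adjusted p = 0.384, unadjusted p = 0.00843).

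Psmb10, the beta-2i subunit with trypsin-like activity, showed the same order of groups with smaller differences. It was at 25.1, 25.8, 21.4, 27.3 and 22.6 CPM in Rnf20-labelled replicates 4, 8, 14, 18 and 20. Trained scrambled replicates 5, 6, 10, 15 and 16 held 22.7, 27.3, 35.0, 37.7 and 35.5 CPM, and naive replicates 1, 2, 9, 11 and 12 held 23.6, 23.9, 26.0, 29.6 and 23.5 CPM. Only trained scrambled replicates 10, 15 and 16 lay above every library of the other groups, and replicate 5 lay below every naive library. The log2 fold change was -0.37 (SE 0.13) for Rnf20-labelled over trained scrambled, -0.05 (SE 0.13) for Rnf20-labelled over naive and 0.32 (SE 0.13) for trained scrambled over naive libraries. The edgeR adjusted p-values were 0.832, 1.00 and 0.425 in that order.

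Psme2, the beta subunit of the PA28 ring, is placed by RefSeq next to Emc9 and close to Psme1 on chromosome 15. Rnf20-labelled replicates 4, 8, 14, 18 and 20 held 27.4, 30.3, 25.0, 42.1 and 27.7 CPM. Trained scrambled replicates 5, 6, 10, 15 and 16 held 28.0, 36.3, 55.7, 50.8 and 39.5 CPM. Naive replicates 1, 2, 9, 11 and 12 held 27.1, 27.2, 34.0, 28.7 and 28.7 CPM. Trained scrambled replicates 6, 10, 15 and 16 were above every naive library, as was Rnf20-labelled replicate 18. Means were 30.5 ± 6.73 CPM in Rnf20-labelled, 42.0 ± 11.2 CPM in trained scrambled and 29.2 ± 2.81 CPM in naive libraries (SD, n = 5 each). The log2 fold change was -0.46 (SE 0.17, edgeR adjusted p = 0.832, unadjusted p = 0.0164) for Rnf20-labelled over trained scrambled libraries and 0.53 (SE 0.17, edgeR adjusted p = 0.383, unadjusted p = 0.00755) for trained scrambled over naive libraries. RefSeq names 3 pseudogene copies of Psme2, none of them a row of the count table, so how reads shared with them were counted is uncertain.

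Psme1, the alpha subunit of the same ring, was counted at 3 to 9 reads in Rnf20-labelled libraries, 4 to 23 reads in trained scrambled libraries and 3 to 6 reads in naive libraries. These counts were under the filter and limit what can be said of the gene. RefSeq names 3 copies of Psme1, 0 of them in the count table, and whether reads were lost to them was not tested. With no filter on low counts the log2 fold change was -0.52 (SE 0.41, edgeR adjusted p = 0.797) for Rnf20-labelled over trained scrambled, 0.69 (SE 0.44, edgeR adjusted p = 1.00) for Rnf20-labelled over naive and 1.21 (SE 0.43, edgeR adjusted p = 0.555) for trained scrambled over naive libraries.

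Psme3, which forms the nuclear PA28 gamma ring, was the steadiest member. It was at 40.2 to 48.9 CPM in Rnf20-labelled, 39.3 to 47.7 CPM in trained scrambled and 40.6 to 47.0 CPM in naive libraries, ranges that nearly coincide. The log2 fold changes were -0.04 (95% interval -0.20 to 0.12) for Rnf20-labelled over trained scrambled, -0.01 (-0.17 to 0.15) for Rnf20-labelled over naive and 0.03 (-0.13 to 0.18) for trained scrambled over naive libraries. Its spread within groups, an SD of 0.11 on the log2 scale, was above that of only 8.11% of tested genes. RefSeq names 4 pseudogene copies of Psme3, 0 of them in the count table.

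Psme4, the large PA200 activator, had near-equal group means but wide spread in both trained groups. Rnf20-labelled replicates 4, 8, 14, 18 and 20 held 100.3, 128, 80.9, 136 and 133 CPM, a mean of 116 ± 24.1 CPM. Trained scrambled replicates 5, 6, 10, 15 and 16 held 92.0, 91.5, 148, 131 and 109 CPM, a mean of 114 ± 24.8 CPM, and the naive mean was 114 ± 10.1 CPM (SD, n = 5 each). The highest and the lowest Psme4 libraries were thus both trained ones, replicate 10 and replicate 14, which also stood at opposite ends for Psmb9. The log2 fold change was 0.02 (95% interval -0.31 to 0.35) for Rnf20-labelled over trained scrambled libraries and 0.01 (-0.32 to 0.34) for trained scrambled over naive libraries. Without the 4 libraries at the ends of component 1 these values were 0.30 (edgeR adjusted p = 0.706) and -0.21 (edgeR adjusted p = 0.589), the first of them under 0.05 before adjustment.

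**Figure D2:**
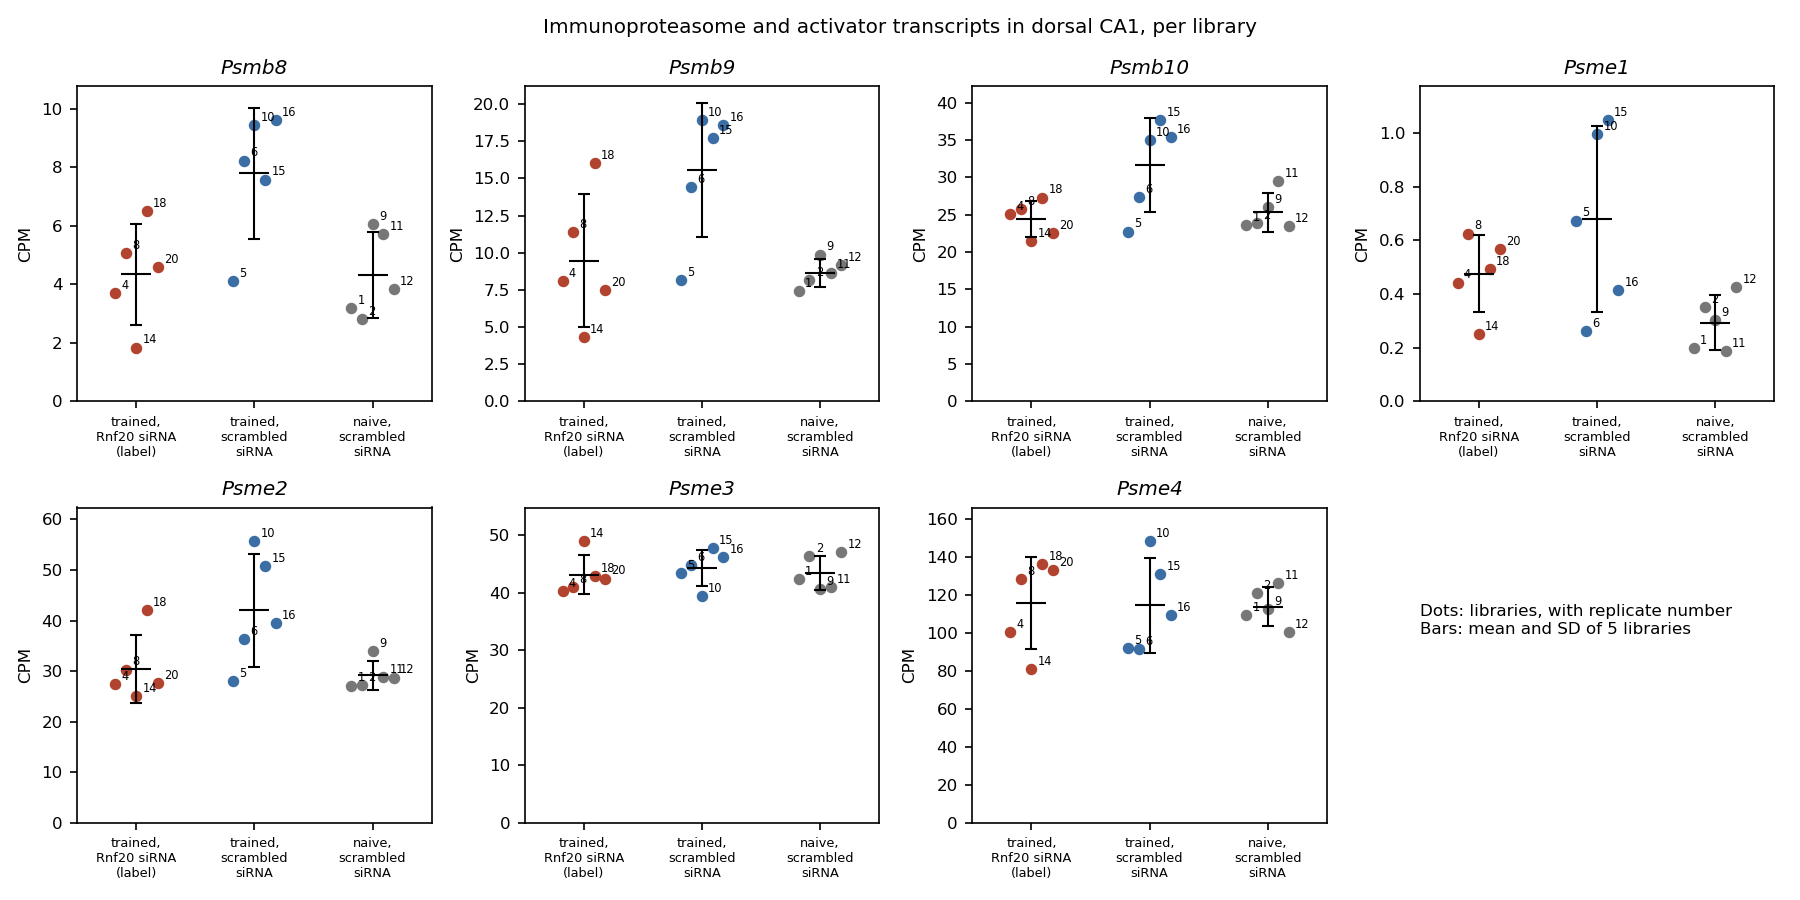
CPM of the 7 members in each library (y axes, starting at 0), with trained Rnf20-labelled libraries left, trained scrambled libraries in the middle and naive scrambled libraries right. Dots are libraries with their replicate numbers, and bars are the mean and SD of 5; for Psmb8, Psmb9 and Psme2 all trained scrambled libraries but replicate 5 lie above every naive library.

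Of the 6 tested members, 4 (Psmb8, Psmb9, Psmb10 and Psme2) were higher in trained scrambled than in naive libraries at an unadjusted p under 0.05, where 6.62% of all tested genes were. The same 4 members were lower in Rnf20-labelled than in trained scrambled libraries at that level, where 2.98% of all tested genes were. These comparisons share the trained scrambled libraries, so a high level in those libraries enters both. The members and the gene lists were chosen with earlier results of these data known. Their counts beside the share of all genes are therefore descriptions and not independent support. Between Rnf20-labelled and naive libraries 0 members were under 0.05, against 2.30% of tested genes, and the 95% interval of the log2 fold change was -0.66 to 0.69 for Psmb8, -0.47 to 0.74 for Psmb9, -0.32 to 0.22 for Psmb10 and -0.30 to 0.43 for Psme2. In each comparison the 2 groups overlapped for all 6 members. Of all tested genes, 1.10% were higher and 0.659% lower without overlap in trained scrambled than in naive libraries, 0.397% and 0.262% in Rnf20-labelled than in trained scrambled libraries, and 0.249% and 0.249% in Rnf20-labelled than in naive libraries. By edgeR's F test among the 3 groups, 4 members were under an unadjusted p of 0.05, as were 6.44% of tested genes, and 0 passed (adjusted p of 0.743 for Psmb8, Psmb9, Psmb10 and Psme2, 0.995 for Psme3 and 1.00 for Psme4). DESeq2 and limma-voom called 0 members as well in every comparison, while DESeq2 called 58 genes between trained scrambled and naive libraries.

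**Figure D3:**
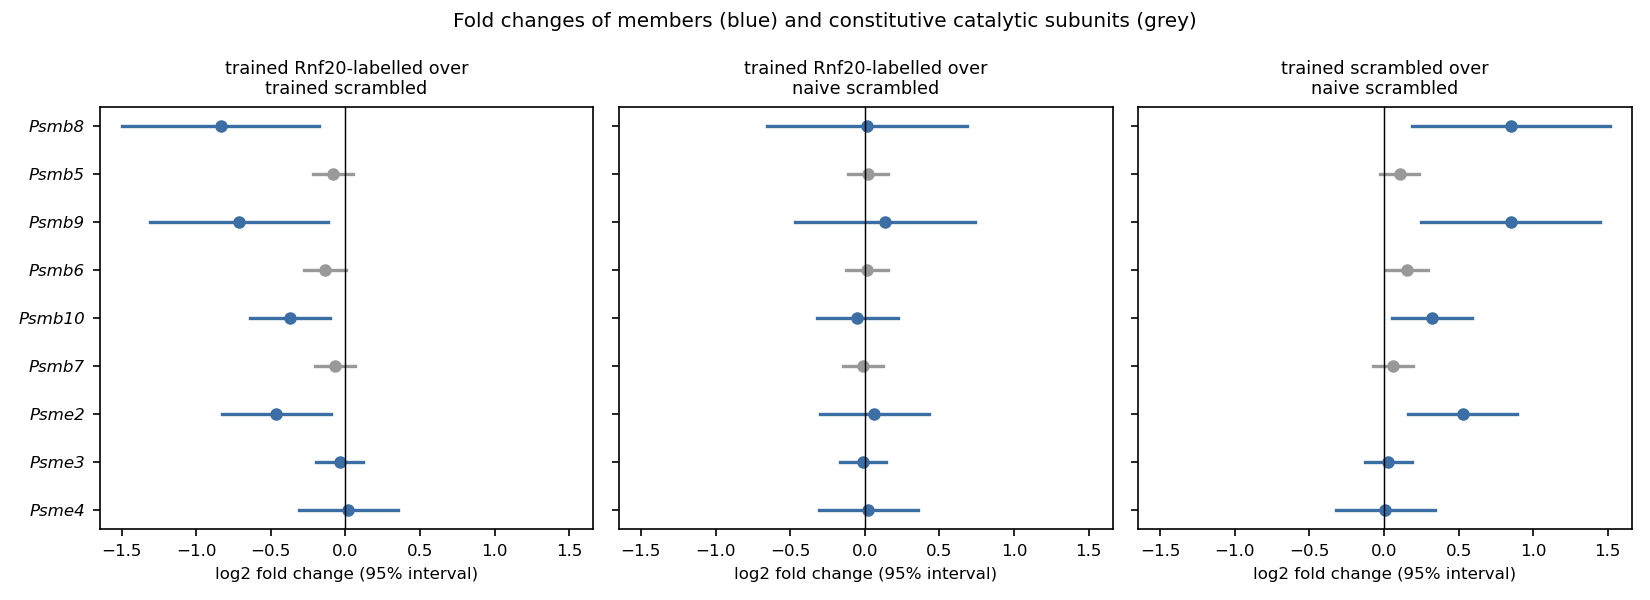
Log2 fold changes (x axis) with 95% intervals from the edgeR fit for 6 members (blue) and the 3 constitutive catalytic subunits (grey) in 3 comparisons, with 5 libraries per group. The intervals of Psmb8, Psmb9, Psmb10 and Psme2 lie below 0 in the left panel and above 0 in the right one before any adjustment, all include 0 in the middle one, and those of the grey subunits are narrower. The grey interval of Psmb6 also lies above 0 in the right panel and just includes 0 in the left one.

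Libraries that stand apart moved these values. When Rnf20-labelled replicates 14 and 18 and trained scrambled replicates 10 and 15 were left out, the log2 fold changes of trained scrambled over naive libraries were 0.77 for Psmb8, 0.68 for Psmb9, 0.18 for Psmb10 and 0.26 for Psme2. Those of Rnf20-labelled over trained scrambled libraries were -0.73, -0.62, -0.23 and -0.29 for the same genes. With the mean level of 39 interferon-stimulated genes as a covariate, the values for trained scrambled over naive libraries were 0.43, 0.40, 0.08 and 0.21, with 0 of 6 members and 1100 of 14880 genes under an unadjusted edgeR p of 0.05. For Rnf20-labelled over trained scrambled libraries they were -0.43, -0.32, -0.15 and -0.17, with 0 members and 593 genes under 0.05. With 1 surrogate variable the values for trained scrambled over naive libraries were 0.55, 0.47, 0.16 and 0.29, with 2 of 6 members and 1559 of 14880 genes under 0.05 before adjustment. Those for Rnf20-labelled over trained scrambled libraries were -0.54, -0.37, -0.18 and -0.20, where the 1 member under 0.05, among 1347 genes, was Psme4, at 0.26. In Rnf20-labelled over naive libraries, leaving out replicate 14 gave 0.20 for Psmb8 and 0.31 for Psmb9, and leaving out replicate 18 gave -0.17 for Psmb8 and -0.13 for Psmb9.

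The constitutive catalytic subunits give the setting in which the inducible ones are read, since each inducible subunit replaces 1 of them. Psmb5 was at 66.4 ± 2.50 CPM in Rnf20-labelled, 70.3 ± 5.84 CPM in trained scrambled and 65.4 ± 2.23 CPM in naive libraries (SD, n = 5 each). Psmb6 was at 82.7 ± 6.14, 91.0 ± 5.41 and 81.8 ± 4.15 CPM in the same order of groups, and Psmb7 at 98.2 ± 6.10, 103 ± 5.08 and 98.8 ± 4.74 CPM. Their spread within groups was small, above that of 1.65% to 3.72% of tested genes, whereas Psmb8 and Psmb9 varied more than 88.0% and 85.0% of tested genes. Between trained scrambled and naive libraries, Psmb5, Psmb6 and Psmb7 had log2 fold changes of 0.10, 0.15 and 0.06. The 95% interval of Psmb6 was 0.013 to 0.295 (edgeR adjusted p = 0.459, unadjusted p = 0.0346), and those of Psmb5 and Psmb7 included 0. For Rnf20-labelled over trained scrambled libraries Psmb6 was at -0.14 (95% interval -0.28 to 0.0040). RefSeq names 3 copies of Psmb6 and 2 of Psmb7, 0 of them in the count table, so their counts share the uncertainty of Psme2.

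The balance of inducible over constitutive subunit was taken as the log2 ratio of their read counts within a library, in which library size cancels. The ratio is not corrected for transcript length, so only its differences between libraries are read. For beta-5, Psmb8 reads amounted to 5.49%, 7.81%, 2.66%, 10.4% and 6.81% of Psmb5 reads in Rnf20-labelled replicates 4, 8, 14, 18 and 20. They amounted to 5.96%, 12.3%, 14.2%, 11.0% and 12.0% in trained scrambled replicates 5, 6, 10, 15 and 16, and to 4.13% to 9.12% in naive libraries. For beta-1, Psmb9 reads were 5.34% to 17.2% of Psmb6 reads in Rnf20-labelled libraries, 8.96% to 20.4% in trained scrambled libraries and 9.69% to 11.3% in naive libraries. For beta-2, Psmb10 reads were 19.8% to 30.0%, 22.5% to 35.5% and 22.9% to 30.4% of Psmb7 reads in the same order of groups. Trained scrambled replicate 5 held the lowest ratio of its group at all 3 sites, and the ratios of that group overlapped both other groups. Choroid plexus markers summed to 12.1 CPM in replicate 5, against 1481 to 4611 CPM in naive libraries. They summed to 49.6 CPM in trained scrambled replicate 16, whose ratios lay above every naive library. The mean log2 CPM of 39 interferon-stimulated genes was 2.30 in replicate 5, the lowest of its group. Any bearing of these values on the ratios was not tested.

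None of the 9 differences in ratio passed adjustment. Rnf20-labelled minus trained scrambled libraries gave a difference in log2 ratio of -0.81 for Psmb8 over Psmb5 (two-sided exact permutation p = 0.0635), -0.65 for Psmb9 over Psmb6 (exact p = 0.0873) and -0.28 for Psmb10 over Psmb7 (exact p = 0.103). Trained scrambled minus naive libraries gave 0.75 for Psmb8 over Psmb5 (exact p = 0.0556), 0.64 for Psmb9 over Psmb6 (exact p = 0.0476) and 0.24 for Psmb10 over Psmb7 (exact p = 0.151). Rnf20-labelled minus naive libraries gave -0.06, -0.01 and -0.04 for the 3 sites. After adjustment over the 9 exact permutation tests the lowest p was 0.186, and the smallest p that 5 against 5 libraries can give is 0.00794. Without trained scrambled replicate 5, 4 of the 9 passed, at adjusted p = 0.0357 by exact permutation. Psmb8 over Psmb5 and Psmb9 over Psmb6 were then lower in Rnf20-labelled than in trained scrambled libraries (-1.02 and -0.86). Both were higher in trained scrambled than in naive libraries (0.96 and 0.85). In these ratios replicate 5 was the only trained scrambled library not above every library of the other groups. Its removal alone left the groups without overlap, so these passes are not read as support. Without the 4 libraries at the ends of component 1, Rnf20-labelled minus trained scrambled libraries gave -0.53 for Psmb8 over Psmb5, -0.38 for Psmb9 over Psmb6 and -0.12 for Psmb10 over Psmb7. Trained scrambled minus naive libraries then gave 0.60, 0.45 and 0.092 for the same sites, and the lowest adjusted p by exact permutation was 0.893. With so few libraries left per group no ratio could have passed adjustment, so only the sizes of these differences are read.

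**Figure D4:**
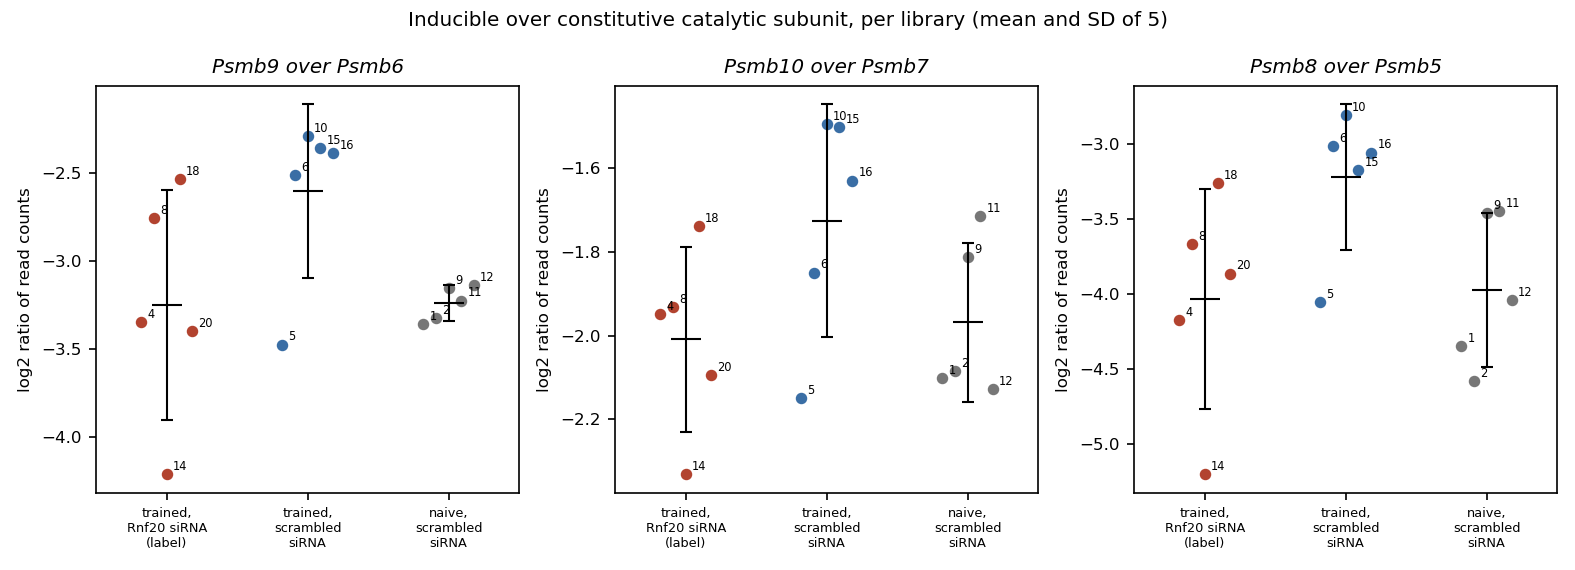
Log2 ratio of read counts (y axis) of each inducible catalytic subunit over the constitutive subunit it replaces, per library, with trained Rnf20-labelled libraries left, trained scrambled libraries in the middle and naive libraries right. Dots are libraries with replicate numbers, and bars are the mean and SD of 5; trained scrambled replicate 5 sits apart from the other 4 for Psmb9 over Psmb6.

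Log2 fold changes were small in the rest of the proteasome. Those of 7021 of 14880 tested genes were above 0 in trained scrambled over naive libraries. In Rnf20-labelled over trained scrambled libraries those of 7343 were below 0. Of 13 genes of the constitutive 20S core, 13 had a log2 fold change above 0 in trained scrambled over naive libraries, with a median of 0.17 against -0.01 for all tested genes, and 8 were under an unadjusted p of 0.05, against 6.62% of tested genes that were higher at that level. Rnf20-labelled over trained scrambled libraries gave a median of -0.15 for this core against 0.00 for all tested genes, with 13 below 0. Of these 13, 5 were under an unadjusted edgeR p of 0.05, against 2.98% of tested genes that were lower at that level. The 19 genes of the 19S regulatory particle, which unfolds substrates, had medians of -0.11 for Rnf20-labelled over trained scrambled and 0.09 for trained scrambled over naive libraries. At the same level 6 of the 19 were lower in the first comparison and 5 were higher in the second. The 12 tested genes of proteasome assembly and control, such as the chaperone Psmd5 and the inhibitor Psmf1, had medians of -0.06 and 0.06. Of these 12, 2 were lower in the first comparison and 2 were higher in the second at that level. By edgeR adjusted over all genes, 0 genes of these 3 lists passed in any comparison.

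Genes that act upstream and downstream of the immunoproteasome were set beside it. Irf1, a transcription factor that binds ISRE-type sites, was at 11.5 ± 2.12 CPM in Rnf20-labelled, 15.4 ± 6.04 CPM in trained scrambled and 11.4 ± 2.07 CPM in naive libraries (SD, n = 5 each). Nlrc5, the transactivator of MHC class I genes, was at 3.42 ± 2.08, 4.87 ± 2.58 and 3.21 ± 1.02 CPM in the same order. Tap1, the neighbour of Psmb8 and Psmb9, was at 9.94 ± 3.27, 17.5 ± 9.30 and 10.8 ± 2.40 CPM, and Tap2 had at most 7 reads in a library. All 3 of Irf1, Nlrc5 and Tap1 had their highest group mean in trained scrambled libraries, with overlap between groups.

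Of 39 tested interferon-stimulated genes, none of them a member, 38 were above 0 in trained scrambled over naive libraries, at a median of 0.87 (log2 fold change), and 29 were under an unadjusted p of 0.05, against 6.62% of tested genes that were higher at that level. For Rnf20-labelled over trained scrambled libraries 39 were below 0 with a median of -0.83. Of these, 19 were under an unadjusted edgeR p of 0.05, against 2.98% of tested genes that were lower at that level. For Rnf20-labelled over naive libraries the median was 0.14. Of all 14880 tested genes, 7021 were above 0 for trained scrambled over naive and 7343 below 0 for Rnf20-labelled over trained scrambled libraries. Gbp4, an interferon-induced GTPase, had a log2 fold change of -0.93 for Rnf20-labelled over trained scrambled libraries and of 1.07 for trained scrambled over naive libraries. Of 20 tested peptide loading and MHC class I genes, 20 were below 0 for Rnf20-labelled over trained scrambled libraries (median -0.38) and 17 were above 0 for trained scrambled over naive libraries (median 0.17), with the near-identical RT1 genes among them uncertain in their counts. For 20 genes of interferon signalling the medians were -0.29 and 0.31, with Irf9, a subunit of the interferon-activated factor ISGF3, at -0.52 (SE 0.15) and 0.71 (SE 0.15). MHC class II genes (6 tested) had medians of -0.92 and 0.26, and genes of NF-kB and TNF signalling (12 tested) had medians of -0.27 and 0.45. By edgeR adjusted over all genes 0 of the genes in these lists passed. The lists were chosen with earlier results of these data known, so their counts are descriptions.

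Markers of several cell types also varied between libraries and groups. Microglia markers (17 tested) summed to 853 to 2148 CPM in Rnf20-labelled, 1102 to 2272 CPM in trained scrambled and 971 to 1664 CPM in naive libraries, and their median log2 fold change was -0.32 for Rnf20-labelled over trained scrambled and 0.44 for trained scrambled over naive libraries. Leukocyte markers (10 of 22 in the table tested) summed to 62.9 to 409 CPM, 158 to 633 CPM and 94.5 to 163 CPM in the same order, with overlap between groups. Among T cell genes of the list, named after their values were seen, Cd3e had 57 to 296 reads per library, Cd3d 0 to 4 and Cd3g 0 to 8. Cd4, named likewise, had 110 to 1381 reads, Cd8a 0 to 52, and Cd8b and Cd2 0 to 20 each. Of its B cell genes, named likewise, Ms4a1 and Cd79a had 0 to 3 reads and Cd79b 0 to 6. Neuron markers (12 tested) summed to 8319 to 14373 CPM in Rnf20-labelled, 6873 to 12555 CPM in trained scrambled and 10019 to 12021 CPM in naive libraries. For the other marker lists the medians, Rnf20-labelled over trained scrambled first and trained scrambled over naive second, were -0.68 and 1.26 for reactive glia, -0.999 and 2.13 for blood, -0.56 and 1.40 for leukocytes and -0.29 and -0.92 for choroid plexus. They were 0.05 and -0.03 for astrocytes, -0.0047 and -0.19 for endothelium, 0.09 and -0.23 for oligodendrocytes and 0.15 and -0.20 for neurons. At an unadjusted edgeR p under 0.05, 6.62% of tested genes were higher in trained scrambled than in naive libraries. So were 14 of 19 reactive glia, 6 of 6 blood and 6 of 10 leukocyte markers. For microglia 1 of 17 was, for astrocytes 1 of 11, and for choroid plexus, endothelium, oligodendrocytes and neurons 0. By edgeR adjusted over all genes, 0 marker genes passed. The part of these markers in the members' differences between groups was not tested beyond the fits with a covariate. When the microglia score was added to the fit, the log2 fold changes of trained scrambled over naive libraries were 0.56 for Psmb8, 0.48 for Psmb9, 0.20 for Psmb10 and 0.34 for Psme2, with 2 members (Psmb9 and Psme2) and 1017 of 14880 genes under an unadjusted edgeR p of 0.05. Those of Rnf20-labelled over trained scrambled libraries were -0.59, -0.41, -0.24 and -0.28 for the same genes, with 0 members and 672 genes under 0.05. In both comparisons 0 members passed adjustment.

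After subtraction of group means, the 6 members were compared with 3 list scores (the mean log2 CPM of a list in a library) over the 15 libraries, 18 relations in all, by permutation of libraries within groups. Psmb10 followed the interferon-stimulated gene score most closely (Pearson r = 0.86, permutation p = 0.000380, adjusted p = 0.00456; Spearman rho = 0.75, permutation p = 0.00807, adjusted p = 0.0182), with r = 0.70 without the 2 libraries farthest from the median score. Psmb9 followed the microglia score (r = 0.79, permutation p = 0.00494, adjusted p = 0.0156; rho = 0.75, permutation p = 0.00933, adjusted p = 0.0187), with r = 0.59 without the 2 farthest libraries. Psme2 ran against the neuron score (r = -0.87, permutation p = 0.000560, adjusted p = 0.00456; rho = -0.89, permutation p = 0.000360, adjusted p = 0.00648), and r was -0.73 without the 2 farthest libraries. Psme4, whose group means were near equal, also ran against the neuron score (r = -0.86, permutation p = 0.000760, adjusted p = 0.00456; rho = -0.82, permutation p = 0.00197, adjusted p = 0.00949), with r = -0.83 without the 2 farthest. Psme3 had no relation that passed (lowest permutation p = 0.175 for Pearson's r, adjusted p = 0.197), and its r with the interferon score, -0.25, was -0.71 without the 2 farthest libraries. Of the 18 relations, 14 had an adjusted permutation p under 0.05 for Pearson's r, all of them with members other than Psme3. The share of all tested genes that would pass with these scores was not computed. The 14 are therefore not read as particular to the members. Members passed with more than 1 score: Psmb9 also ran against the neuron score (r = -0.80, rho = -0.78), and Psme4 also followed the microglia score (r = 0.75, rho = 0.76). By Spearman's rho Psmb8 did not pass with the interferon score (adjusted permutation p = 0.0514) or the microglia score (adjusted permutation p = 0.0770). The scores share the libraries and the scaling with the members.

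**Figure D5:**
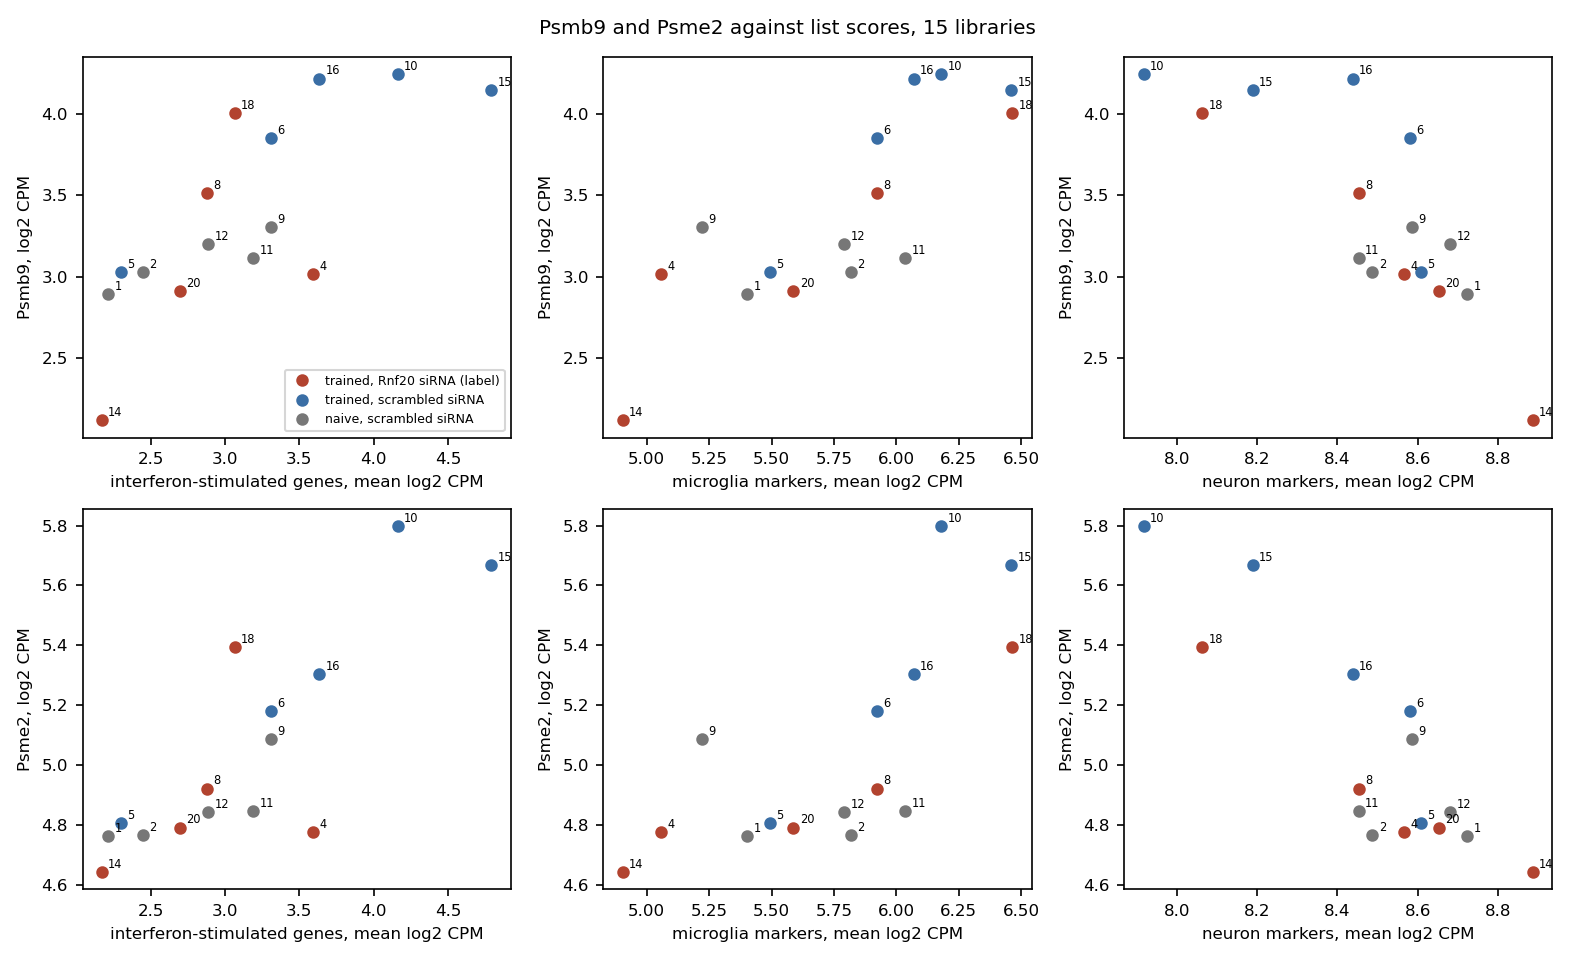
Log2 CPM of Psmb9 (top) and Psme2 (bottom) on the y axes against the mean log2 CPM of interferon-stimulated genes, microglia markers and neuron markers on the x axes, with 1 dot per library, its replicate number and the colour of its group. Trained scrambled replicates 10 and 15 are high in both members and in the first 2 scores and low in the neuron score, and Rnf20-labelled replicate 14 is at the opposite end.

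Among themselves, Psmb8, Psmb9, Psmb10, Psme2 and Psme4 varied together and Psme3 did not. As a description over 15 libraries with group means removed, Pearson's r was 0.87 between Psmb8 and Psmb9, 0.84 between Psmb9 and Psme2, 0.79 between Psmb10 and Psme2 and 0.72 between Psmb8 and Psmb10. Psme4 had r of 0.67 to 0.75 with these 4 genes, and Psme3 had r of -0.52 to -0.22 with the same 4 and -0.45 with Psme4. By the same measure, the genes outside the family most like each member were Tshr (r = 0.89), Tmem134 (0.88) and AABR07044420.2 (0.88) for Psmb8, and Tspo (0.96), Kif15 (0.94) and Pofut2 (0.94) for Psmb9. For Psmb10 they were Triobp (0.94), the interferon-induced membrane protein gene Ifitm3 (0.94) and Itga2b (0.94), and for Psme2 they were Tf (0.96), Pih1d2 (0.96) and Pole2 (0.96). For Psme3 they were Itpa (0.93), Ric8a (0.88) and Esd (0.87), and for Psme4 they were Col11a1 (0.95), P3h1 (0.95) and Pcsk7 (0.95). These are the closest of 14880 genes over 15 libraries, given with no test.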

How the data were processed

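Gene-level read counts of 15 libraries were analysed. The submitters' processing notes name Trim Galore, FastQC, featureCounts 2.0.1, DESeq2 and the build Rnor_6.0. No aligner, annotation release or strand setting is given in the sources used here. Libraries came from a stranded mRNA kit with 14 PCR cycles, per the labels' protocols. The deposited raw counts served every test, and the deposited normalised table was not used.

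Of 22314 genes, 14880 passed filterByExpr. Counts were scaled by TMM and fitted with edgeR 4.0.16 (R 4.3.3) by the quasi-likelihood F test over all 15 libraries, with 12 residual degrees of freedom, Benjamini-Hochberg adjustment over all tested genes and a threshold of 0.05. The fit was tested on simulated data. CPM uses the TMM-scaled library size, and scores use log2 CPM with a prior count of 2. Ratios used a pseudocount of 0.5 counts and exact permutation tests over 252 divisions of the libraries (scipy 1.17.1), and correlations used 100000 permutations. Alternatives used DESeq2 1.42.0, limma 3.58.1 and sva 3.50.0. Named genes are the 7 members, Psmb5, Psmb6 and Psmb7, preset regulators (Irf1 and Nlrc5; 1 further regulator is not reported here), Tap1 and Tap2, the 1 or 2 genes of smallest p of a list in which none passed, and the 3 genes most like each member; any further gene was picked after seeing its values, as stated where it is named. The 17 gene lists besides the members (8 of pathways and 9 of cell markers) and the members were chosen with earlier results of these data known. The labels give no batch and no pairing.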

Additional observations from a re-analysis of the deposited data

Results flagged for a closer look

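In each group of 5 libraries the highest and lowest values of the 7 members, the 3 constitutive partners and the 3 ratios were compared with the rest by Dixon's gap test, in 39 groups of values, of which chance alone sets apart about 1 in 20. Psmb5 was at 80.5 CPM in trained scrambled replicate 16, far above the 66.4 to 68.9 CPM of the other 4 libraries of that group. The log2 ratio of Psmb9 over Psmb6 was -3.48 in trained scrambled replicate 5, far below the -2.51 to -2.29 of the other 4. Psme2 was at 34.0 CPM in naive replicate 9, far above the 27.1 to 28.7 CPM of the other 4 naive libraries.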

How the results depend on the processing

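No member passed the adjusted threshold in any of 3 comparisons under 13 alternatives of test, scaling, filter, covariate or libraries and with each of 15 libraries left out (0 members in every one). DESeq2 called 58 genes between trained scrambled and naive libraries, 1 (Per1) between Rnf20-labelled and naive libraries and 1 (Pkd1) between the trained groups, where edgeR called 0. Both were named after their values were seen. With a library left out, 0 to 1 genes were called between Rnf20-labelled and naive libraries, the 1 being Per1 without naive replicate 9. The causes were not tested.

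In trained scrambled over naive libraries, and in Rnf20-labelled over trained scrambled libraries, Psmb8, Psmb9, Psmb10 and Psme2 kept the direction of their log2 fold changes under all 28 alternatives. The near-zero value of Psme4 in trained scrambled over naive libraries, 0.01, was -0.018 by limma-voom, -0.032 with quality weights, -0.21 with 1 surrogate variable, -0.17 with the microglia score, -0.20 with the interferon score and -0.21 without the 4 far-out libraries, and -0.10 to 0.093 with a library left out. For Rnf20-labelled over trained scrambled libraries its main value, 0.02, was 0.30 without the 4 far-out libraries and 0.26 with 1 surrogate variable, both under 0.05 before adjustment only, and 0.20 with the microglia or the interferon score. It was -0.15 without the 3 choroid-poor libraries (those with the lowest score of choroid plexus markers) and -0.056 to 0.13 with a library left out.

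For Rnf20-labelled over naive libraries, where all members were near 0, several signs changed. Psmb8 was -0.0035 by limma-voom, -0.029 with the microglia score, -0.0073 with the interferon score, -0.0051 without the 3 choroid-poor libraries and -0.17 to 0.20 with a library left out. Psme2 was -0.0091 with quality weights, -0.034 without the 4 far-out libraries and -0.074 to 0.13 with a library left out. Psme4 was -1.14e-05 by limma-voom, -0.021 with quality weights, -0.030 without the 3 choroid-poor libraries and -0.036 to 0.13 with a library left out. With a library left out Psmb9 was -0.13 to 0.31, Psmb10 -0.089 to 0.012 and Psme3 -0.061 to 0.027.

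Of the alternatives run on the ratios, only leaving out trained scrambled replicate 5 changed a call. The setting without the 4 far-out libraries could not have changed one, because it leaves too few libraries per group for any ratio to pass. Without the 3 choroid-poor libraries, too few trained scrambled libraries are left for any comparison with that group to pass. With a library left out the difference was -1.02 to -0.52 for Psmb8 over Psmb5 and -0.86 to -0.40 for Psmb9 over Psmb6 between the trained groups, and 0.60 to 0.96 and 0.56 to 0.85 between trained scrambled and naive libraries. For Rnf20-labelled minus naive libraries the ranges were -0.25 to 0.23 for Psmb8 over Psmb5, -0.19 to 0.23 for Psmb9 over Psmb6 and -0.11 to 0.040 for Psmb10 over Psmb7. Without the 4 far-out libraries that difference was 0.072 for both Psmb8 over Psmb5 and Psmb9 over Psmb6, and without the 3 choroid-poor libraries it was 0.028 for Psmb9 over Psmb6. No paired analysis was possible because the groups share no replicate numbers. The low count of Psme1, 3 to 23 reads, limits what can be said of it, and its cause was not tested.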

Other observations

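Psmb8, Psmb9 and Psme2 and the wider interferon-stimulated genes parted in 2 Rnf20-labelled libraries, which were chosen after their values were seen. Rnf20-labelled replicate 4 had the highest interferon-stimulated gene score of its group, 3.59, above every naive library, yet its Psmb9 (8.09 CPM), Psmb8 (3.71 CPM) and Psme2 (27.4 CPM) lay inside the naive ranges and its microglia score, 5.06, was below every naive library. Rnf20-labelled replicate 18 had a score of 3.07, inside the naive range of 2.22 to 3.31, while its Psmb9 (16.0 CPM), Psmb8 (6.52 CPM) and Psme2 (42.1 CPM) lay above every naive library, its Psmb10 (27.3 CPM) lay inside the naive range of 23.5 to 29.6 CPM, and its microglia score was 6.46, against at most 6.04 in naive libraries. Whether the cell mix accounts for either library was not tested.

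Psmb11, the thymus-type catalytic subunit, also named after its values were seen, had 2 to 9 reads in Rnf20-labelled libraries, 3 to 8 reads in trained scrambled libraries and 2 to 7 reads in naive libraries.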
